A study of Homo sapiens with 27 samples.

Results

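Signals of 774 human microRNA (miRNA) probes were compared between OCI-AML3 cells kept with the chemokine SDF-1α for 4 h and untreated OCI-AML3 cells. OCI-AML3 is an established line of acute myeloid leukaemia, a cancer of blood-forming cells. The 3 arrays titled SDF-1α 4h held RNA from cells given 100 ng/mL SDF-1α and taken at 4 h, and the 3 arrays titled Control held RNA from cells with no treatment, taken at 0 h. These 6 arrays are part of a set of 27, in which the other groups, of 3 arrays each, were SDF-1α at 1, 2 and 8 h and POL6326, an antagonist of the SDF-1α receptor CXCR4, at 250 nM for 1, 2, 4 and 8 h. All groups came from the same line, grown in serum-containing medium. No untreated cells were taken at 4 h, so the effect of SDF-1α cannot be told apart from that of hours in culture. Separate cultures behind a group's 3 arrays are not recorded in the labels, so each p-value measures the spread between the arrays, which may be technical.

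SDF-1α, also named CXCL12, is a chemokine made by marrow stromal cells, and CXCR4 is the G-protein-coupled receptor through which it holds normal and leukaemic blood-forming cells in the marrow. A miRNA is cut from a hairpin precursor, loaded into an Argonaute protein and pairs with messenger RNAs mainly through its seed, bases 2 to 8, so miRNAs with the same seed can share targets. A star after a name marks the strand of the hairpin that was first taken as the minor one, and a name written with mir in lower case is a probe for the precursor. let-7a, a tumour-suppressor miRNA, is named with CXCR4 in the title of the series.

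Against control, 15 of the 774 probes passed the threshold, 7 higher (0.904%) and 8 lower (1.03%) with SDF-1α at 4 h, in all 1.94% of the probes tested. The mature sequences of those that RefSeq's table (GRCh38.p14) holds are shown because their seeds set which family each belongs to, and capitals mark the seed. The miRNAs that were lower were these.
miR-30c: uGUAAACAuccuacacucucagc
miR-214: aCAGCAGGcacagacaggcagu
miR-212: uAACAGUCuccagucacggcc
miR-128a: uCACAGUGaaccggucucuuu
miR-572: gUCCGCUCggcgguggccca
The miRNAs that were higher were these.
miR-497: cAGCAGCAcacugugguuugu
miR-380*: uGGUUGACcauagaacaugcgc
miR-561: cAAAGUUUaagauccuugaagu
miR-125b-2*: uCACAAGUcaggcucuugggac
miR-642: gUCCCUCUccaaaugugucuug
The relatives below share a seed with a member above and are shown for comparison with it.
miR-30a: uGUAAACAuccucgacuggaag
miR-132: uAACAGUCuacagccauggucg
miR-16: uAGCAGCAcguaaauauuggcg
miR-195: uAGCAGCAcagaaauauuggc
miR-30c and miR-30a were identical at 17 of 22 aligned bases, miR-212 and miR-132 at 17 of 21, and miR-497 and miR-16 at 11 of 21, counted from the 5′ end. The 10 changed mature miRNAs shown carry 10 different seeds. The sources used here do not say how far the array separates such relatives, so a signal can hold some of a relative's RNA.

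In RefSeq's annotation on GRCh38.p14 the mature miR-30c lies, at the locus MIR30C1, 1 of its 2 loci, at chr1:40757300-40757322 within the bounds of NFYC, with the miR-30e hairpin within 10 kb. miR-214 lies at chr1:172138816-172138837 within the bounds of DNM3 and of the non-coding DNM3OS, near the miR-199a-2 hairpin. miR-212 lies at chr17:2050290-2050310 outside the bounds of any other gene in that table, with the miR-132 hairpin within 10 kb. miR-497 lies at chr17:7017979-7017999 within the bounds of the non-coding MIR497HG, which also spans miR-195. miR-128a lies at chr2:135665446-135665466, 1 of 2 loci with this mature sequence, within the bounds of R3HDM1, and miR-125b-2* lies at chr21:16590290-16590311 within the bounds of the non-coding MIR99AHG. The precursor of miR-433 and the mature miR-380* both lie on chromosome 14, at chr14:100881886-100881978 and chr14:101025021-101025042, in the imprinted DLK1-DIO3 cluster. For the other members, miR-561 lies within the bounds of GULP1, miR-642 within those of GIPR and miR-572 within those of a pseudogene, RNPS1P1. Bounds were compared on either strand.

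The deposited values are log2 signals. On each array many probes share a single low value, called the floor here, and the lowest value above it is called the array's detection limit. The SDF-1α 4 h arrays had 362, 381 and 369 of the 774 probes above the floor (371 ± 9.61, SD, n = 3), and the control arrays had 560, 304 and 257 (374 ± 163, SD, n = 3). The means differed by -3 probes (exact permutation test, two-sided, p = 1, where the smallest p possible is 0.1). Control array 1 stood apart: its detection limit was 4.30, against 5.83 and 6.45 on the other control arrays and 4.82, 4.70 and 4.94 on the SDF-1α 4 h arrays. Over the 241 probes above the floor on all 6 arrays it correlated with the other control arrays at r = 0.907 and 0.898, whereas those correlated with each other at r = 0.967 and the SDF-1α 4 h arrays among themselves at 0.937 to 0.958. Without control array 1 the number of probes above the floor differed by 90.2 (exact p = 0.1, the smallest possible). The count of probes past the threshold and the members' differences are given with and without it.

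**Figure D1:**
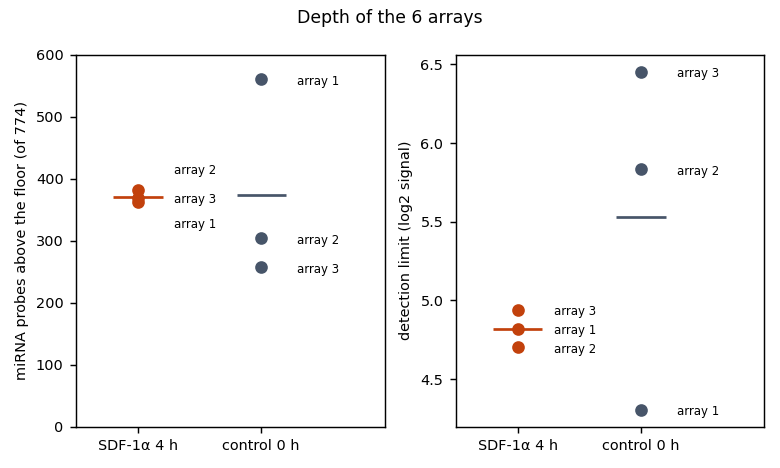
Number of miRNA probes above the floor (left, of 774) and detection limit in log2 signal (right) on the 3 SDF-1α 4 h arrays and the 3 control arrays. Points are arrays and lines are group means; control array 1 has 560 probes above the floor and a limit of 4.30, while the SDF-1α 4 h arrays lie within 362 to 381 probes.

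Of 9 markers of blood-forming cells, miR-223, miR-155, miR-150, miR-142-5p and miR-10a, 5 in all, were above the floor on each of the 6 arrays, and miR-142-3p was above it on 1 control array and no SDF-1α 4 h array. miR-223, the myeloid miRNA, read 15.12 on each SDF-1α 4 h array, and 14.39, 15.46 and 15.12 in control. miR-122, the liver miRNA, was also above the floor on all 6 arrays, as were miR-206 and miR-133b of 4 muscle markers, miR-205 of 6 epithelial markers and miR-214 and miR-145 of 4 stromal markers. The pluripotency markers miR-302b, miR-302c and miR-367 were at the floor on all 6, as was the stromal miR-143 and the erythroid miR-144. The mean log2 level per array of the 3 neural markers ran from 5.47 to 6.20 with SDF-1α at 4 h and from 4.36 to 5.45 in control, and the neural markers miR-124 and miR-137 had no value above the floor on control arrays 2 and 3. Their SDF-1α 4 h means, 5.70 and 5.78, lay under the detection limits of those arrays, 5.83 and 6.45. Set against control arrays 2 and 3, these means therefore give no measured difference in level. Both probes were above the floor on control array 1. Their control means, 4.39 and 4.42, and the neural range in control include floor values. The mean log2 level per array of the 4 stromal markers ran from 5.97 to 6.58 with SDF-1α at 4 h and from 6.41 to 7.77 in control. None of the 10 control probes of the array passed the threshold (lowest adjusted p = 0.277). They were not level between the groups, though, and their differences ran from -2.06 for HUMTRAB to 1.02 for HUMTRV1A. By limma's moderated test the unadjusted p was 0.0110 for HSTRNL (-1.53) and 0.0160 for HUMTRV1A.

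Most probes did not separate the groups. Over the 241 probes above the floor on all 6 arrays the median log2 difference, SDF-1α 4 h minus control, was 0.02, with 125 probes of higher sign and 116 of lower sign and a range of -2.59 to 2.26. Among these 241, every SDF-1α 4 h value was above every control value for 23 probes and below every control value for 30. Groups that do not overlap are therefore not particular to the probes named below. A further 195 probes had no value above the floor on any of the 6, and 338 were at the floor on some but not all. An unadjusted p under 0.05 was reached by 81 probes. Of the 15 probes past the adjusted threshold, 9 were above the floor on all 6 arrays. The 15 were 11 mature and 4 precursor probes, and 2 of them come from the DLK1-DIO3 cluster. Removing each array's median moved the median difference of all 774 probes to 0.10, against -0.01 in the deposited values, and 9 probes were then higher and 6 lower. This setting moves the difference of every probe by the same amount. The median was 4.57 on control array 1, above its floor of 4.27, and was the floor itself on the other arrays of the 6.

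The count rested on single arrays. Without SDF-1α 4 h array 3 it was 2, miR-380* and miR-214, without control array 2 it was 5, and without SDF-1α 4 h array 1 it was 9. Without control array 1 it was 11, and 9 of these were among the 15. The differences of these 9 without that array were 2.36 for miR-380*, 1.67 for miR-125b-2*, 0.77 for miR-497, -0.69 for miR-30c, -0.85 for miR-214, -0.86 for miR-212, -1.15 for miR-128a, -1.80 for mir-206 and -1.75 for mir-194-1. For miR-380* and miR-125b-2* the remaining control arrays were at the floor, with detection limits of 5.83 and 6.45. Their SDF-1α 4 h means were 6.72 and 6.03, so 2.36 and 1.67 are distances to the floor and not measured sizes. That of mir-194-1 includes SDF-1α 4 h arrays at the floor. The other 6 of the 15, mir-433, miR-561, miR-483-3p, miR-642 (0.46), miR-572 and mir-646, did not pass without control array 1. With the 2 groups fitted alone, and so with their own spread in place of that of all 27 arrays, 2 probes passed, miR-380* and miR-497. miR-380* was the 1 member past the threshold under every setting in which it was tested. It was not tested with probes mostly at the floor left out or with 1 common detection limit. miR-214, above the floor on all 6 arrays, lost the call only with the 2 groups fitted alone (adjusted p = 0.0559 by limma's moderated test).

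**Figure D2:**
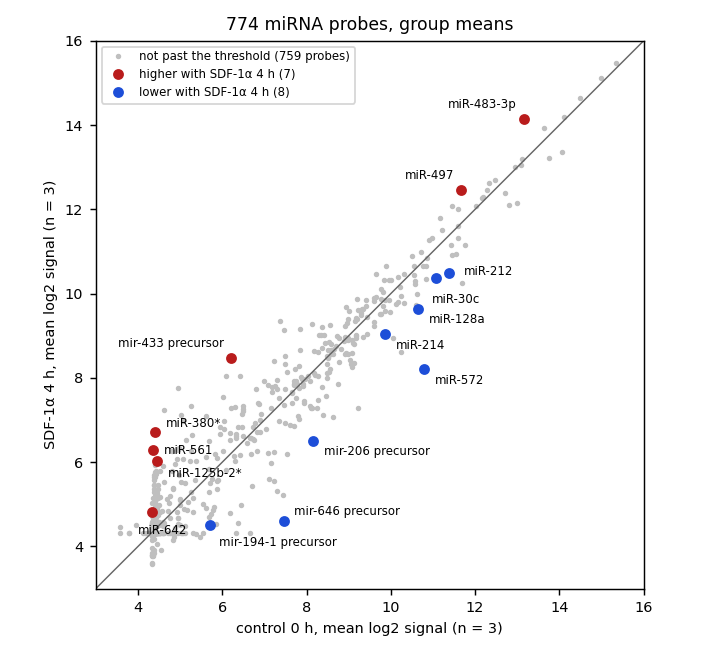
Mean log2 signal of each of the 774 miRNA probes with SDF-1α at 4 h (vertical) against control at 0 h (horizontal), 3 arrays each, with the line of equality. The 7 probes past the threshold and higher with SDF-1α lie above the line and the 8 lower lie below it; the vertical and horizontal bands near 4.3 are probes at the floor in 1 group.

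The fall with the smallest p was that of miR-214, a miRNA made from the strand opposite DNM3. It read 8.97, 8.90 and 9.23 with SDF-1α at 4 h, against 9.83, 9.92 and 9.85 in control. Every SDF-1α array was below every control array, and the fall was 1.78-fold (log2 -0.83, SE 0.14, adjusted p = 0.00506 by limma's moderated test). miR-214 is also 1 of the 4 stromal markers, so their mean level given above includes this fall. Of the others, miR-145 differed by -0.84 (adjusted p = 0.697), miR-143 was at the floor, and miR-199a-5p was above it on 1 array of each group. The part of the other stromal markers in this fall was not tested. The other probes of this hairpin, both marked Plus/Minus, a mark the sources used here do not explain, had 1 of the 6 arrays above the floor, control array 1.

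miR-30c, of the miR-30 family, read 10.31, 10.33 and 10.49 with SDF-1α at 4 h and 11.04, 11.14 and 11.00 in control. The groups did not overlap and each was tight, with SDs of 0.10 and 0.07, and the fall was 1.60-fold (log2 -0.68, SE 0.14, adjusted p = 0.0163). The call ended with median centring (-0.57, adjusted p = 0.0635) and quantile normalization (-0.58, adjusted p = 0.0564). The family, whose members are known to restrain SNAI1 and the autophagy gene BECN1 in human cells, had 11 probes, star strands included, of which miR-30c fell and 10 did not pass. The 4 members above the floor on all 6 arrays had the same sign: miR-30a differed by -0.47 (adjusted p = 0.548), miR-30b by -0.54 (adjusted p = 0.435) and miR-30d by -0.39 (adjusted p = 0.778). All 4 kept this sign under quantile normalization. Median centring moved the difference of every probe by the same amount, too small to turn these signs. The SDF-1α 4 h arrays lay below the control arrays for miR-30a and miR-30b, and overlapped them for miR-30d. Of all 241 probes above the floor on all 6 arrays, 30 lay below control in this way and 116 had a lower sign. miR-30e had no SDF-1α 4 h array above the floor and 2 of 3 control arrays, at 4.76 and 6.01 (adjusted p = 0.196). The median of the 4 measured members was -0.51, beside 0.02 over all probes above the floor on the 6 arrays. These 4 include miR-30c, which was chosen by its fall, and the family was not tested as a set.

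miR-212, which is made with miR-132 from a locus induced by the transcription factor CREB, fell 1.87-fold. It read 10.49, 10.61 and 10.36 with SDF-1α at 4 h, against 11.48, 11.46 and 11.23 in control (log2 -0.90, SE 0.18, adjusted p = 0.0133). The groups were separated by more than their spread (SD 0.13 with SDF-1α at 4 h and 0.14 in control). Its precursor, mir-212, stood at -0.29 (SE 0.18, adjusted p = 0.580). The Plus/Minus probe of miR-132, the seed partner, read 8.55, 8.34 and 8.94 with SDF-1α at 4 h and 10.30, 10.79 and 9.60 in control. These values did not overlap either, and the difference of -1.62 (SE 0.50, adjusted p = 0.151) did not pass. The other mature miR-132 probe was above the floor on 1 of 3 arrays of each group and differed by 0.02 (adjusted p = 0.987).

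miR-128a, a miRNA abundant in brain and known to be higher in acute lymphoblastic than in acute myeloid leukaemia, read 9.20, 9.87 and 9.84 with SDF-1α at 4 h and 10.39, 10.89 and 10.68 in control. Each SDF-1α array was below each control array, a 2.03-fold fall (log2 -1.02, SE 0.23, adjusted p = 0.0208). Its precursor, mir-128a, read 6.39, 5.59 and 6.57 with SDF-1α at 4 h and 7.81, 7.34 and 7.44 in control. The precursor's groups did not overlap, and its difference was -1.35 (SE 0.63, adjusted p = 0.444).

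miR-572, a miRNA for which no role is given here, had the widest spread between the SDF-1α 4 h arrays among the falls. It read 9.28, 9.17 and 6.15 with SDF-1α at 4 h, against 10.47, 11.19 and 10.71 in control. All SDF-1α values were below the control values, and array 3 was far below the other SDF-1α arrays. The fitted fall was 6.03-fold (log2 -2.59, SE 0.61, adjusted p = 0.0302). Without SDF-1α 4 h array 3 it was -1.56 (adjusted p = 0.128), and without control array 1 it was -2.75 (adjusted p = 0.0608).

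Among the precursors, mir-206, the hairpin of a skeletal-muscle miRNA, read 7.09, 6.34 and 6.09 with SDF-1α at 4 h and 7.84, 8.50 and 8.12 in control, a 3.13-fold fall (log2 -1.64, SE 0.36, adjusted p = 0.0208). The mature miR-206 probe differed by -0.25 (SE 0.47, adjusted p = 0.987). The 4 mature muscle markers had a mean log2 level per array of 5.49 to 5.73 with SDF-1α at 4 h and 5.49 to 6.12 in control. mir-646 read 5.20 on SDF-1α 4 h array 1 and was at the floor on the other SDF-1α arrays, against 8.48, 7.24 and 6.65 in control. This difference passed (log2 -2.85, SE 0.70, adjusted p = 0.0412), was -2.51, or 5.70-fold, with floor values set to each array's detection limit, and without control array 1 was -2.34 (adjusted p = 0.196). The hairpin is shown with its mature arm in capitals, because the mature miR-646 probe was at the floor on all 6 arrays.
mir-646: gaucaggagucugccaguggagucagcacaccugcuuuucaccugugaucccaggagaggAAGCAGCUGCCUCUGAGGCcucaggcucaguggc
mir-194-1, the hairpin next to that of miR-215 and known to respond to p53, had 1 SDF-1α 4 h array above the floor, at 4.91, against 4.58, 5.96 and 6.56 in control. The groups overlapped, and the difference of -1.19 (SE 0.30, adjusted p = 0.0429) was -0.85 with floor values at the detection limit. Without control array 1, the lowest of the control arrays, it was -1.75 (adjusted p = 4.86e-06), and without control array 3 it was -0.76 (adjusted p = 0.149). Mature miR-194 differed by -0.42 (adjusted p = 0.561).

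**Figure D3:**
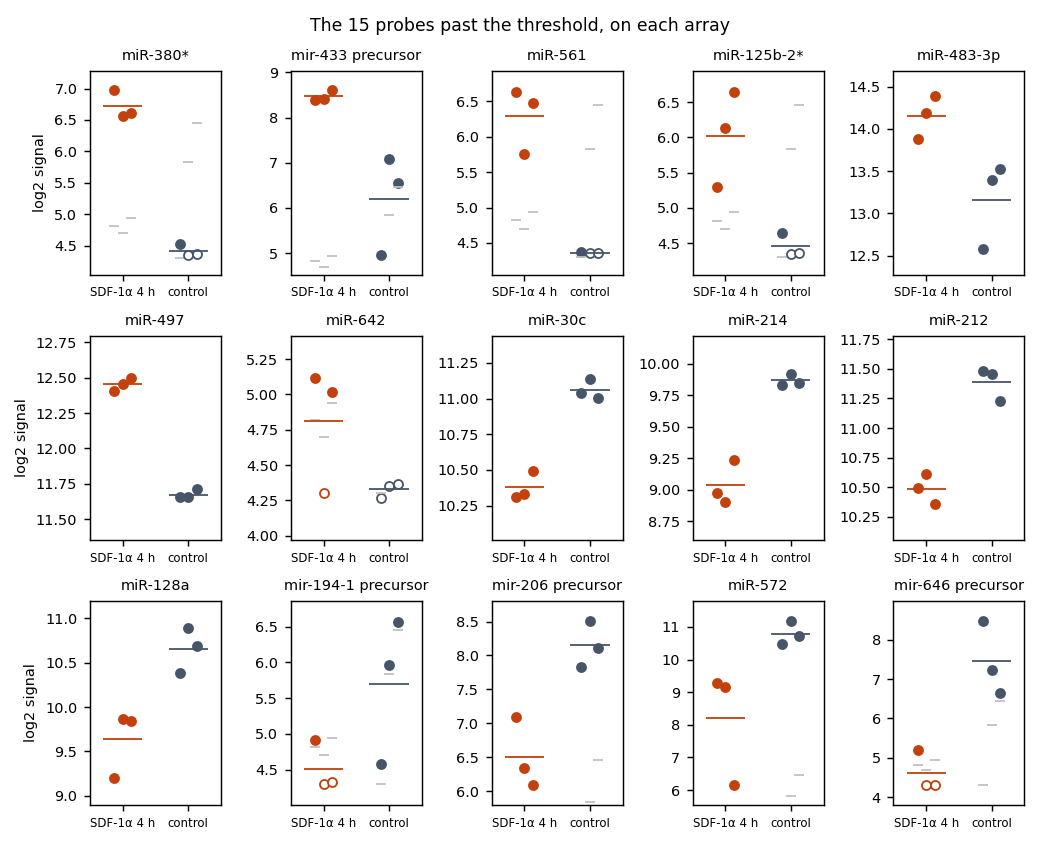
Log2 signal on each array of the 15 probes past the threshold, SDF-1α 4 h left of control in each panel, with arrays 1 to 3 from left to right; the vertical scale differs between panels. Filled points are above the array's floor, open points are at it, coloured lines are group means and short grey lines are detection limits where they fall within the panel; miR-30c, miR-214, miR-212 and miR-497 are separated with little spread, while miR-642 and mir-194-1 overlap.

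Of the rises above the floor on all 6 arrays, that of miR-497 had the least spread. It is a relative of miR-15 and miR-16 with the same seed, a group known to repress CCND1 and BCL2 in human cells. It read 12.41, 12.46 and 12.50 with SDF-1α at 4 h, against 11.65, 11.65 and 11.71 in control. The SDs were 0.04 and 0.03, and the rise was 1.72-fold (log2 0.78, SE 0.16, adjusted p = 0.0137). It kept the call with median centring (0.89), quantile normalization (0.79) and without control array 1 (0.77, adjusted p = 0.0394), and lost it without SDF-1α 4 h array 3 (0.76, adjusted p = 0.0663) or control array 2 (0.77, adjusted p = 0.0524).

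Counting star strands, 13 probes belong to its family list, of which miR-497 rose and 12 did not pass. The 6 mature probes with this seed, each measured above the floor on each of the 6 arrays, had a median of 0.40, with 4 of higher and 2 of lower sign. miR-424 differed by 0.84 (SE 0.57, adjusted p = 0.664) and miR-195, made from the same host transcript as miR-497, by 0.57 (SE 0.81, adjusted p = 0.987). miR-16 differed the other way, at -0.88 (SE 0.39, adjusted p = 0.435), with 7.92, 7.33 and 7.48 with SDF-1α at 4 h and 7.89, 8.78 and 8.70 in control. On control array 1 miR-195 read 5.01 and miR-424 4.95, well below the 7.99 and 7.52 and the 7.34 and 7.16 of the other control arrays. The SDF-1α 4 h mean of miR-195, 7.41, was below those other control values, and that of miR-424, 7.32, lay between them. The median and signs of these probes therefore rested in part on control array 1.

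**Figure D4:**
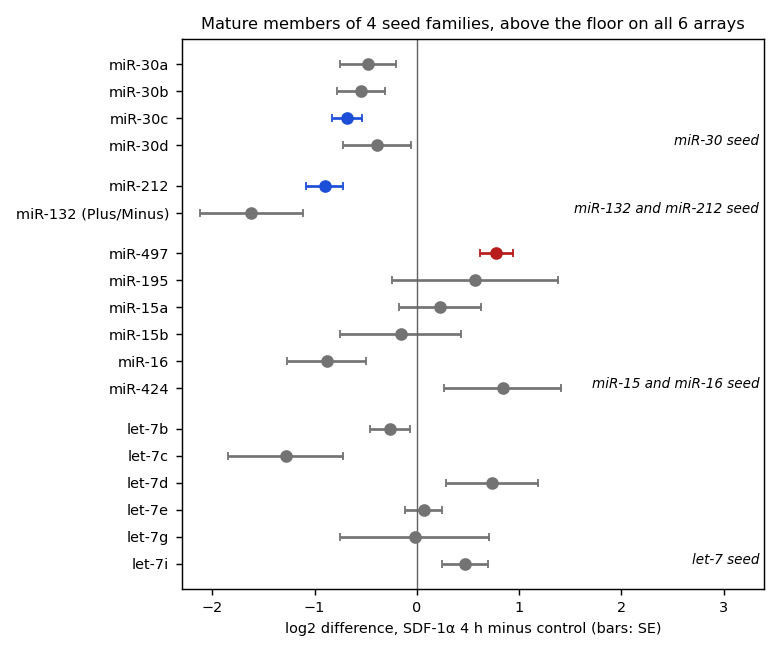
Log2 difference, SDF-1α 4 h minus control, of mature members of 4 seed families that were above the floor on all 6 arrays; bars are the SE from the fit (3 arrays per group). Blue and red mark the members past the threshold (miR-30c and miR-212 lower, miR-497 higher); the 4 miR-30 members lie left of 0, whereas the let-7 and the miR-15 and miR-16 members lie on both sides.

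miR-483-3p, made from an intron of IGF2, read 13.88, 14.19 and 14.39 with SDF-1α at 4 h and 12.57, 13.39 and 13.52 in control. The groups did not overlap and the rise was 1.99-fold (log2 0.99, SE 0.25, adjusted p = 0.0429). Control array 1 was the lowest of the 6, and without it the difference was 0.70 (adjusted p = 0.262). The call also ended with median centring (1.10, adjusted p = 0.0541), quantile normalization (0.88, adjusted p = 0.0945) and without control array 2 or any 1 of the SDF-1α 4 h arrays (0.87 to 1.13). The other arm of the hairpin, miR-483-5p, was above the floor on 1 SDF-1α 4 h array and on no control array.

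The precursor mir-433, from the DLK1-DIO3 cluster, an imprinted cluster of miRNAs expressed from the maternal chromosome, had the largest rise among probes above the floor on all 6 arrays. It read 8.38, 8.41 and 8.60 with SDF-1α at 4 h, against 4.96, 7.09 and 6.55 in control, a 4.81-fold rise (log2 2.26, SE 0.48, adjusted p = 0.0163). The SDF-1α arrays agree within 0.22, whereas control array 1 was below the other control arrays, and without it the rise was 1.64 (adjusted p = 0.0823). The mature miR-433 probe was above the floor on 1 of the 6 arrays, a control array. The hairpin is shown with its mature arms in capitals, since signal came from the precursor probe and not from the mature one.
mir-433: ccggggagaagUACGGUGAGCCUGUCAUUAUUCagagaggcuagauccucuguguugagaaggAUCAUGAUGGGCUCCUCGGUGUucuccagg

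miR-380*, the strand of the miR-380 hairpin known to repress p53 in human neuroblastoma cells, read 6.97, 6.56 and 6.62 with SDF-1α at 4 h. In control it read 4.52 on array 1 and was at the floor on arrays 2 and 3. All 3 SDF-1α values were above the highest control detection limit of 6.45, and the fitted rise was 2.31 (SE 0.31, adjusted p = 0.000415). With floor values set to the detection limits the rise was 1.11, or 2.16-fold. The partner strand, miR-380, was at the floor on all 6 arrays. The DLK1-DIO3 list had 81 probes, of which miR-380* and mir-433 rose and 79 did not pass, where 0.904% of all probes were higher. Of the 20 above the floor on all 6 arrays, 14 had a higher and 6 a lower sign, beside 125 and 116 over all such probes. Their median was 0.34, beside 0.02 over all such probes. With median centring these were 0.46 and 0.14, a shift of every probe by the same amount, and with quantile normalization 0.39 and 0.06. The 20 include mir-433, which was chosen by its rise. Among the 20, miR-409-3p (Plus/Minus) differed by 1.16 (adjusted p = 0.503), miR-758 by 0.69 (adjusted p = 0.469) and miR-487b by -0.80 (adjusted p = 0.712). miR-654-5p, from the same cluster, read 7.73, 8.00 and 7.56 with SDF-1α at 4 h and 6.13 on control array 1, with the other control arrays at the floor (2.82, SE 0.74, adjusted p = 0.0564). With floor values at the detection limits its difference was 1.62, and without control array 1 it was 3.41 (adjusted p = 0.0394). The latter was taken from floor values alone in control, so it is not a measured size.

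The remaining rises lay near the floor. miR-561, a miRNA for which no role is given here, read 6.64, 5.75 and 6.48 with SDF-1α at 4 h and was above the floor on 1 control array, at 4.36. The fitted difference of 1.93 (SE 0.43, adjusted p = 0.0208) was 0.74 with floor values at the detection limits, and 2 of 3 SDF-1α values were above the highest control limit. Without control array 1 it was 1.93 (adjusted p = 0.0624), taken from floor values alone in control. miR-125b-2*, the minor strand of a hairpin that lies in the miR-99a and let-7c locus on chromosome 21, read 5.29, 6.14 and 6.65 with SDF-1α at 4 h and 4.64 on control array 1, with the other control arrays at the floor. Its difference of 1.57 (SE 0.28, adjusted p = 0.00575) was 0.38, or 1.30-fold, with floor values at the detection limits, and 1 of 3 SDF-1α values was above the highest control limit. The mature miR-125b probe was above the floor on 1 of the 6 arrays, a control array. miR-642 was above the floor on 2 SDF-1α 4 h arrays, at 5.12 and 5.02, and on no control array (log2 0.48, SE 0.12, adjusted p = 0.0429). Its SDF-1α mean of 4.81 was under the mean control detection limit of 5.53, so no fold is given.

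The mature let-7a probe, the miRNA in the title of the series, did not separate the groups. It read 7.41, 7.21 and 6.35 with SDF-1α at 4 h, against 8.24 and 8.09 on control arrays 1 and 2 and the floor, 4.36, on control array 3. The fitted difference was 0.09 (SE 0.80, adjusted p = 0.987), and without control array 3 it was -1.17 (adjusted p = 0.511). The sign therefore rested on 1 control array at the floor, and the SDF-1α values lay below both control arrays that measured it. let-7c, which differs from let-7a by the substitution A19G counted from the 5′ end of let-7a, read 7.00, 7.26 and 7.10 with SDF-1α at 4 h and 8.34, 8.61 and 8.24 in control. On control array 3 the probes read apart, with let-7c at 8.24 and let-7a at the floor, and the reason was not tested. The sequences are shown, with seeds in capitals, because so small a difference may not be fully resolved by hybridisation.
let-7a: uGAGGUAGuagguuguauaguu
let-7c: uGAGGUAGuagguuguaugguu
The let-7c groups did not overlap, with SDF-1α below control as for 30 of the 241 probes above the floor on all 6 arrays. Its difference of -1.28 (SE 0.56, adjusted p = 0.435) did not pass. Of the 17 let-7 family probes, star strands and precursors included, none passed, and the 7 above the floor on all 6 arrays had a median of -0.02, with 3 of higher and 4 of lower sign. The signs of let-7b* and let-7g turned with median centring. let-7i differed by 0.47 (adjusted p = 0.469), let-7d by 0.74 (adjusted p = 0.580) and let-7b by -0.26 (adjusted p = 0.697), while let-7d* stood at 2.11 (SE 0.76, adjusted p = 0.292) and let-7e* at -1.50 (SE 0.64, adjusted p = 0.426), both with arrays at the floor.

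The other miRNA lists held few or no members past the threshold, and none was tested as a list. Over all 774 probes 0.904% were higher and 1.03% lower, and counts of 1 or 2 per list are read as no result about a list. Of 25 myeloid and haematopoietic probes none passed. miR-221, a regulator of KIT in erythroid cells, read 9.54, 8.52 and 8.78 with SDF-1α at 4 h and 10.03, 10.23 and 9.90 in control (-1.11, SE 0.51, adjusted p = 0.443), while its cluster partner miR-222 differed by -0.33 (adjusted p = 0.899). Of 22 probes linked to NF-kB and inflammation, 20 did not pass, miR-125b-2* rose and miR-212 fell. miR-155, the main member of that list, differed by -0.28 (SE 0.30, adjusted p = 0.900), and miR-146a was above the floor on 1 of the 6 arrays, a control array. Of 27 stem-cell and leukaemia-linked probes miR-125b-2* rose, miR-128a fell and 25 did not pass. Of 18 p53-linked probes mir-194-1 fell and 17 did not pass, of 12 muscle probes mir-206 fell, of 20 neural probes miR-128a fell and of 15 stromal and endothelial probes miR-214 fell.

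No probe passed among 27 of the miR-17 family and clusters, 7 of the miR-29 family, 9 of the miR-181 family, 10 of the miR-23, miR-24 and miR-27 clusters, 5 of the miR-26 family, 11 embedded in HOX clusters, 5 erythroid, 2 liver, 11 epithelial, 16 pluripotent and 46 C19MC probes, nor the hypoxia miRNA miR-210. In the miR-17 family and clusters, which drive proliferation, the 15 probes above the floor on all 6 arrays had a median of -0.24, with 11 of lower and 4 of higher sign. miR-106b was at -0.48 (adjusted p = 0.469) and miR-17 at -0.37 (adjusted p = 0.600). miR-10a, embedded in a HOX cluster, read 9.90, 9.32 and 10.11 with SDF-1α at 4 h and 10.16, 10.52 and 10.24 in control (-0.53, SE 0.33, adjusted p = 0.589). In the C19MC cluster, a placental cluster, 31 of 46 probes were at the floor on all 6 arrays. Among probes above the floor on all 6 arrays that did not pass, the precursor mir-766 came nearest the threshold (0.74, SE 0.20, adjusted p = 0.0619), followed by miR-132 (Plus/Minus) as given above and the precursor mir-565 (1.30, SE 0.42, adjusted p = 0.193).

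To place the 4 h samples in the SDF-1α series, they were compared with SDF-1α at 2 h and at 8 h. Against 2 h, 3 of 774 probes passed (0.388%), 1 higher (0.129%) and 2 lower (0.258%). miR-380* averaged 6.72 ± 0.22 with SDF-1α for 4 h, against 4.62 ± 0.48 for 2 h, where 1 array was above the floor (SD, n = 3 each; log2 2.10, SE 0.31, adjusted p = 0.00127). miR-196b, a HOX-cluster miRNA, was above the floor on 1 of 3 arrays at 4 h and on all 3 at 2 h (log2 -1.96, SE 0.32, adjusted p = 0.00169, and -1.62 with floor values at the detection limits). miR-548d-3p was at the floor on all 4 h arrays and at least 2.16-fold lower than at 2 h. An unadjusted p under 0.05 was reached by 70 probes, and without SDF-1α 4 h array 2 the count was 9.

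Against 8 h, 10 probes passed (1.29%), 6 higher (0.775%) and 4 lower (0.517%) at 4 h, and 89 had an unadjusted p under 0.05. The split was 9 higher and 2 lower with median centring and 3 higher and 6 lower with quantile normalization. miR-107 averaged 10.66 ± 0.18 at 4 h and 9.76 ± 0.18 at 8 h, 1.87-fold higher (log2 0.90, SE 0.19, adjusted p = 0.0233). miR-20a, of the miR-17 cluster, was 1.86-fold, miR-26b 1.80-fold and miR-140-3p 3.58-fold higher at 4 h, and all 3 were above the floor on all 6 arrays. miR-380* was higher by 1.73 (SE 0.31, adjusted p = 0.00894). mir-206 averaged 6.51 ± 0.52 at 4 h and 8.33 ± 0.19 at 8 h, 3.55-fold lower (log2 -1.83, SE 0.36, adjusted p = 0.0189). miR-328 was 1.67-fold and miR-34c-3p 1.51-fold lower at 4 h, and miR-652, at the floor on all 4 h arrays, was at least 1.37-fold lower. miR-642 also passed, with no 8 h array above the floor. Without SDF-1α 4 h arrays 1, 2 and 3 in turn, 6, 5 and 2 probes passed.

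The members differed in how their SDF-1α levels ran over time, and the values are given beside the single 0 h control that each comparison shares. The members were chosen by their 4 h level, so an extreme level at 4 h is in part built in by that choice. miR-30c averaged 11.06 in control and 10.25, 10.26, 10.38 and 10.18 with SDF-1α at 1, 2, 4 and 8 h, so the 4 h level was close to the others (0.12 above 2 h, adjusted p = 0.899, and 0.20 above 8 h, adjusted p = 0.622). miR-128a averaged 10.65 in control and 9.78, 9.50, 9.63 and 9.84 over the same times. miR-212 averaged 11.39 in control and 10.87, 10.49, 10.49 and 11.19, and its 4 h level was below the 8 h level by 0.70 (adjusted p = 0.0603), just outside the threshold. miR-497 averaged 11.67 in control and 11.75, 12.14, 12.45 and 12.21, with its highest mean at 4 h. The difference of miR-497 between 4 h and 2 h was 0.32 (adjusted p = 0.559), which did not pass. miR-572 averaged 10.79 in control and 11.35, 10.65, 8.20 and 9.07, and its 4 h level differed from the 2 h level by -2.45 (adjusted p = 0.124). miR-561 was above the floor on no array at 1 h, on 3 at 2 h, 3 at 4 h and 2 at 8 h. Over the same times the numbers for miR-125b-2* were 0, 3, 3 and 3, and the number of all probes above the floor averaged 223, 325, 371 and 391, so the part of depth in these 2 courses was not tested.

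**Figure D5:**
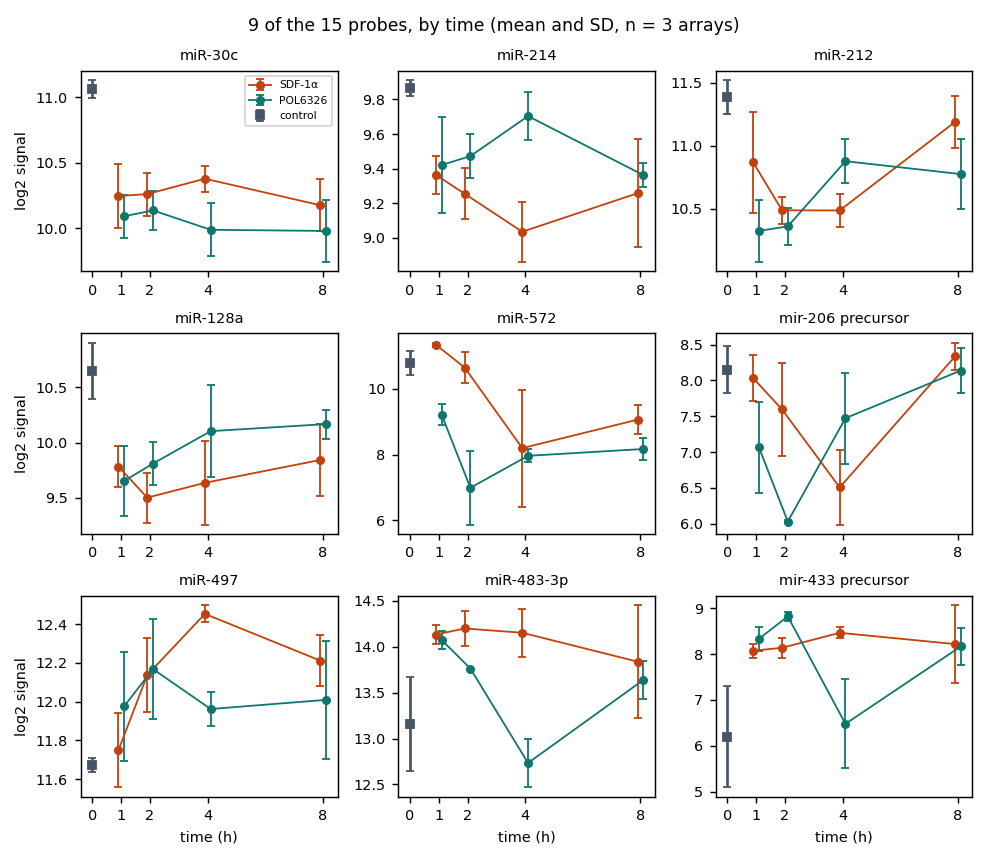
Mean log2 signal (bars: SD, n = 3 arrays) of the 9 probes past the threshold that were above the floor on all 6 arrays, with SDF-1α (orange) or POL6326 (green) at 1, 2, 4 and 8 h and in control at 0 h (grey); the vertical scale differs between panels, and points of the 2 treatments are shifted slightly sideways. miR-30c is lower at every treated time than in control, miR-497 is highest with SDF-1α at 4 h, and mir-206 is lowest in the SDF-1α series at 4 h.

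At 4 h the ligand was also set against the antagonist POL6326, a comparison with matched time in culture and without the control arrays. Here 76 probes passed (9.82%), 47 higher (6.07%) and 29 lower (3.75%) with SDF-1α, and 176 had an unadjusted p under 0.05. The split was 295 higher and 23 lower with median centring and 31 and 31 with quantile normalization, so no balance of directions is read from it. The medians of the POL6326 4 h arrays, 4.53, 4.62 and 4.68, lay above their floors of 4.27. Those of the SDF-1α 4 h arrays were the floor itself. Median centring therefore moved every difference upward by the same amount, also for probes at the floor in both groups. The POL6326 4 h arrays had more probes above the floor (525 ± 59.8, SD, n = 3, against 371 ± 9.61 with SDF-1α at 4 h) and lower detection limits (4.27 to 4.45). With that number in the model 9 probes passed, without POL6326 4 h array 1 the count was 26, and without SDF-1α 4 h arrays 1, 2 and 3 in turn it was 38, 46 and 50.

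The members of the 4 h response against control had these values against POL6326. miR-214 averaged 9.04 ± 0.17 with SDF-1α and 9.70 ± 0.14 with POL6326 at 4 h (SD, n = 3 each; log2 -0.67, SE 0.14, adjusted p = 0.00786). miR-483-3p averaged 14.15 ± 0.26 with SDF-1α and 12.73 ± 0.27 with POL6326, 2.67-fold higher (log2 1.42, SE 0.25, adjusted p = 0.00280). mir-433 averaged 8.47 ± 0.12 with SDF-1α and 6.48 ± 0.97 with POL6326 (log2 1.99, SE 0.48, adjusted p = 0.0136). Both comparisons share the SDF-1α 4 h arrays, so they are not independent. miR-497 differed by 0.49 (adjusted p = 0.0543), miR-30c by 0.39 (adjusted p = 0.0992), miR-212 by -0.39 (adjusted p = 0.189), miR-128a by -0.47 (adjusted p = 0.228) and miR-572 by 0.23 (adjusted p = 0.882). miR-30c averaged 9.99 with POL6326 at 4 h, so its level with either treatment was below that of control, at 11.06.

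Among the probes past the threshold between ligand and antagonist at 4 h, the 5 of largest rise and the 5 of largest fall were none of these members. miR-10b*, whose hairpin lies in a HOX cluster, averaged 7.67 with SDF-1α and 4.76 with POL6326 (2.91, SE 0.85, adjusted p = 0.0360). miR-195 averaged 7.41 and 4.64 in that order (2.77), miR-424 averaged 7.32 and 4.83 (2.49), and miR-181a-2* averaged 8.80 and 6.21 (2.59). miR-409-3p, read by a Plus/Minus probe, averaged 8.39 and 5.88 (2.51), while its other mature probe differed by -0.37 (adjusted p = 0.864). miR-195 and miR-424 are seed relatives of miR-497. On control array 1 they read 5.01 and 4.95, and their POL6326 means were 4.64 and 4.83. The detection limit of control array 1 was 4.30, against 4.27 to 4.45 on the POL6326 4 h arrays. The part of depth in these differences was not tested. miR-138, a neural miRNA, was above the floor on 1 SDF-1α array and 3 POL6326 arrays (-4.02, SE 1.07). Its Plus/Minus probe, above the floor on all 6, averaged 12.69 with SDF-1α and 12.20 with POL6326 (0.49, adjusted p = 0.207). miR-579 was above the floor on 2 SDF-1α and 3 POL6326 arrays (-3.84, SE 0.79). The mir-376b precursor, miR-551b* and miR-548c-3p were at the floor on all SDF-1α 4 h arrays and at least 9.07-fold, 9.06-fold and 6.86-fold lower than with POL6326. None of these 10 probes passed against control, where miR-195 stood at 0.57, miR-424 at 0.84 and miR-138 at -0.27.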

How the data were processed

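Hybridisation of 27 single-colour arrays, 3 in each of 9 groups, measured miRNA signals in OCI-AML3 RNA that was, per the labels, copied to biotin-labelled cDNA. The authors deposited log2 values for 784 probes: 774 for human miRNAs (637 mature and 137 precursor) and 10 controls. Their scanner, background correction and normalization were not given in the sources used here, and no further normalization was applied.

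The floor was an array's most frequent value (tolerance 1e-04). One mean per group was fitted over the 27 arrays by limma 3.58.1 (R 4.3.3) with eBayes (0.90 prior degrees of freedom). P-values are two-sided and were adjusted by Benjamini-Hochberg over the 774 probes, with the threshold at 0.05. An SE that includes tied floor values can be too small. Where floor values are said to be set to detection limits, each was replaced by its own array's limit, and a group wholly at the floor gives a bound. With 3 arrays against 3 an exact permutation test cannot go below p = 0.1. Precision is limited by the small number of arrays.

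The probes named were the 12 largest rises and falls past the threshold, the 12 probes of smallest p above the floor on all 6 arrays, the let-7 family, up to 4 probes of smallest p from each of 23 lists, and the 5 largest rises and falls in each other comparison. Relatives of these, such as other probes of the same hairpin or seed, were added after their values were seen. The members and lists were chosen with earlier results of these data known, and a probe can be in several lists. Sequences are RefSeq's (GRCh38.p14): 23 of 25 probes looked up by name were matched, and miR-483-3p and mir-206 were not. The scripts were tested on simulated data. Alternatives were other normalizations, floors, filters and moderation, a replicate block, a depth covariate, fits of the compared groups alone, and leaving out each array in turn.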

Additional observations from a re-analysis of the deposited data

Results flagged for a closer look

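For 12 pairings of a member with another treated group, the level at SDF-1α 4 h differed from that group past the threshold by limma's moderated test. The members were chosen because the same SDF-1α 4 h arrays differed from control, so these pairings are not independent of that choice. Of all 774 probes, 0.388% passed against SDF-1α 2 h, 1.29% against SDF-1α 8 h and 9.82% against POL6326 4 h. miR-380* was higher at SDF-1α 4 h than at SDF-1α 2 h (log2 2.10, SE 0.31, adjusted p = 0.00127), than at SDF-1α 8 h (1.73, adjusted p = 0.00894) and than with POL6326 at 4 h (2.10, adjusted p = 0.000768). It was above the floor on 3 of 3 arrays at SDF-1α 4 h, against 1 of 3 at 2 h, 2 of 3 at 8 h and 3 of 3 with POL6326 at 4 h, where it averaged 4.62.

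Against SDF-1α 8 h, the precursor mir-206 was lower by -1.83 (SE 0.36, adjusted p = 0.0189) and miR-642 higher by 0.50 (SE 0.12, adjusted p = 0.0478). miR-642 was above the floor on 2 of the 27 arrays, both of SDF-1α 4 h.

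Against POL6326 at 4 h, mir-433 (1.99), miR-561 (1.78), miR-483-3p (1.42), miR-125b-2* (1.04) and miR-642 (0.54) were higher and miR-214 (-0.67) and mir-646 (-2.74) lower with SDF-1α, with adjusted p from 0.00280 to 0.0284. mir-646 was above the floor on 1 SDF-1α 4 h array and on 3 POL6326 4 h arrays, where it averaged 7.34.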

How the results depend on the processing

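Against control 15 probes passed as deposited, 9 with quantile normalization and 2 with the 2 groups fitted alone; the replicate block gave 14, 13 of them among the 15, and leaving out each array gave 2 to 20. Of these 14, 7 were higher and 7 lower; mir-194-1 (adjusted p = 0.0645) and miR-642 (adjusted p = 0.0501) lost the call. The replicate numbers do not pair the samples (correlation of same-numbered deviations -0.16, -0.13 and -0.01). The split of 7 higher and 8 lower was 8 and 13 with 1 common detection limit and 13 and 9 with the array's count above the floor as covariate, 22 in all.

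Against SDF-1α 2 h the count of 3 was 0 after leaving out probes whose values were at the floor in more than 50% of arrays and 0 with the 2 groups alone, and leaving out each array gave 3 to 9. Against SDF-1α 8 h the count of 10 was 2 with that filter, 18 with 1 common limit, 0 with the 2 groups alone and 6 with the replicate block, and leaving out each array gave 2 to 13. Where limma with the 2 groups alone gave 0, an unadjusted p under 0.05 in the fit of all groups was reached by 70 and 89 probes. Against POL6326 4 h the count of 76 was 318 with median centring, 9 with the covariate and 91 with the replicate block, and leaving out each array gave 26 to 72. The 318 came after the upward shift of every difference by the same amount that is described above. The sign of let-7a turned with quantile normalization (-0.015) and 1 common limit (-0.49), and without single arrays it ran from -1.17 to 0.76. The difference in probes above the floor ran from -61.3 to 90.2 without single arrays. The causes were not tested.

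Of 37 named results past the threshold, 1, miR-380* against control, passed under every alternative in which it was tested; it was left out by the filter and by the common limit. Of 88 not past it, 11 passed under 1 or more alternatives and 29 changed sign. Probes at the floor give no level below it, and the limits run from 4.30 to 6.45 on the 6 arrays.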
